A study of Mus musculus with 9 samples.

Results

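The genes described here are 10 transcripts that mark mast cells: Fcer1a, Ms4a2, Cpa3, Cma1, Mcpt4, Tpsb2, Tpsab1, Hdc, Mrgprb2 and Gata2. They were found by their symbols in a table of 54532 genes, and all 10 were present. RNA had been sequenced from skin biopsies of wild-type mice in 3 groups of 3 libraries: healthy controls (ctrl), mice given bleomycin (Blm), and mice given bleomycin with topical nitrate (Blm_nit). Bleomycin breaks DNA and is used to raise a fibrosis of mouse skin that resembles systemic sclerosis, and nitrate can be reduced in tissue to nitrite and nitric oxide. The labels name no strain, sex, age, dose, route or time point, and do not say how many mice the libraries came from. The p-values therefore measure only the spread between these libraries.

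Mast cells are resident immune cells of the dermis that store histamine, heparin and proteases in granules. The high-affinity IgE receptor on their surface binds IgE, and its crosslinking by antigen empties the granules. The receptor consists of an alpha chain that binds IgE (Fcer1a), a beta chain that amplifies the signal (Ms4a2) and a shared gamma chain (Fcer1g). Connective tissue mast cells of mouse skin contain chymases (Cma1, Mcpt4), tryptases (Tpsb2, Tpsab1) and carboxypeptidase A3 (Cpa3), and they carry Mrgprb2, a receptor for basic peptides and drugs that releases granules without IgE. Hdc makes histamine from histidine, and Gata2 is a transcription factor that mast cells and basophils need. In bulk skin, more cells of a type and more RNA per cell cannot be told apart.

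Promoters are shown for both IgE receptor chains, 2 proteases and the peptide receptor, a set with genes that rose, one that fell and some that did not pass the test. GATA factors bind a core that is written GATAA here. Each sequence is RefSeq's GRCm38.p6 sequence, 5′ to 3′ on the gene's strand, from 250 bases before to 50 bases after the start of transcription, and capitals mark GATAA or its reverse complement TTATC.
Fcer1a (chr1:173227180-173227479, minus strand): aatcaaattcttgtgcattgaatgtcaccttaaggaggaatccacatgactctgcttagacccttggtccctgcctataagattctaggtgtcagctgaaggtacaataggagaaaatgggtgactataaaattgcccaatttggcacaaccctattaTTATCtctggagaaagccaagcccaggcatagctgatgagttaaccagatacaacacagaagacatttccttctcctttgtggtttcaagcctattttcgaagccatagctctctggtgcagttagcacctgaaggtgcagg
Ms4a2 (chr19:11623670-11623969, minus strand): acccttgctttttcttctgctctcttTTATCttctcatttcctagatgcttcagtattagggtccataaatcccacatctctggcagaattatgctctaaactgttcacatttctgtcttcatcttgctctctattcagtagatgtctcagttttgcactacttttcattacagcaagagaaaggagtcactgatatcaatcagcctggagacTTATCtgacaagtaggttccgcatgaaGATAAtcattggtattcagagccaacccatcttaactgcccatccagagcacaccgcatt
Cpa3 (chr3:20242132-20242431, minus strand): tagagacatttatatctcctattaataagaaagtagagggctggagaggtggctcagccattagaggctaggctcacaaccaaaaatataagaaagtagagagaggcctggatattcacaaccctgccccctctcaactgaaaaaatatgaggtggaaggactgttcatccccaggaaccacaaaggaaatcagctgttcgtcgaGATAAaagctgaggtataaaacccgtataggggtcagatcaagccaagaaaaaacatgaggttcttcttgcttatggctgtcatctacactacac
Mcpt4 (chr14:56062261-56062560, minus strand): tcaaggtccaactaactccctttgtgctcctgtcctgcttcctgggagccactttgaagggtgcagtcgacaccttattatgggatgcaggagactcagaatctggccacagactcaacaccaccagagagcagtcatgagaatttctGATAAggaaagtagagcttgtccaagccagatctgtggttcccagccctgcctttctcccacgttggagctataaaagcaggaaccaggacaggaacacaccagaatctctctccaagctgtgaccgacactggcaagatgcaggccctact
Mrgprb2 (chr7:48558037-48558336, minus strand): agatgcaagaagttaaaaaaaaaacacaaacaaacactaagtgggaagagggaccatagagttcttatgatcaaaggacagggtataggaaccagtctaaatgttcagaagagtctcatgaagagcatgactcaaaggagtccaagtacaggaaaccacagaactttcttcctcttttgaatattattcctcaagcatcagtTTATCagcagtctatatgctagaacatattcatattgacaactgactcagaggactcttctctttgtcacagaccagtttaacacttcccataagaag

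Of the 10 genes, 8 were matched in the promoter table, and Tpsb2 and Tpsab1 were not. GATAA was found on either strand in the promoters of 6 of those 8 genes, the 5 above and Cma1, while 25.4% of all 32851 promoters of this length held it. Ms4a2 had 3 matches, a number reached or passed by 0.938% of all promoters. In Cpa3 the match began 45 bases before the start. Hdc and Gata2 had none in these windows. A match is a description of letters and shows no binding, and it did not separate genes that rose (Fcer1a, Mcpt4) from the one that fell (Mrgprb2).

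Reads recovered from the table came to 15804050 to 18352592 per library. Levels are given in FPKM, that is fragments scaled to gene length and library size, a unit that allows levels of different genes to be compared. Differences are given as limma differences of log2(FPKM + 1) ± standard error, and the added 1 makes them smaller for genes near 1 FPKM. Adjusted p values are Benjamini-Hochberg values from limma over 14645 genes that had at least 1 FPKM in at least 3 of the 9 libraries. Of the 10 genes 9 passed this filter. Tpsab1 did not, since only 1 library reached 1 FPKM. Fcer1a reached 1 FPKM only in the 6 libraries that had received bleomycin, so the filter could keep it only if it was high there. The proteases Cpa3, Cma1, Mcpt4 and Tpsb2, which few other cells of skin express, lay between 10.3 and 88.1 FPKM in all 9 libraries. The label thus held for these proteases in every library, but not for every gene. In control skin Fcer1a had 0.0655 to 0.288 FPKM, Ms4a2 0.418 to 1.17 and Tpsab1 0.110 to 0.656.

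**Figure D1:**
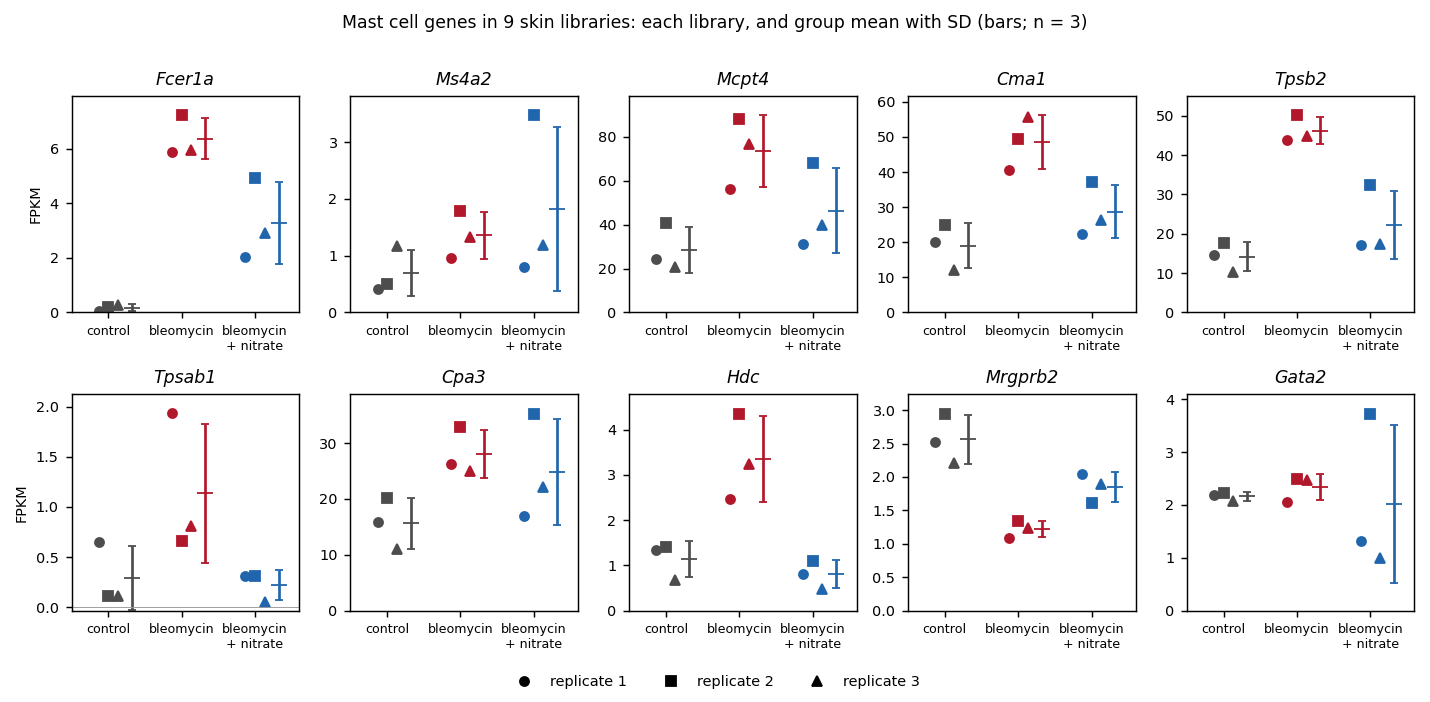
FPKM of the 10 mast cell genes (vertical axes each with their own scale, thin line at 0) in control, bleomycin and bleomycin plus nitrate skin; symbols are libraries by replicate number, and bars give the group mean with its SD (n = 3). The alpha chain gene Fcer1a sits at 0.0655 to 0.288 FPKM in control and at 5.90 to 7.23 in bleomycin, while Mrgprb2 is the gene whose bleomycin libraries lie below control.

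In bleomycin skin most of these genes were higher than in control, and 1 was lower. Of the 9 genes tested, 5 rose (Fcer1a, Cma1, Mcpt4, Tpsb2, Hdc) and 1 fell (Mrgprb2) by limma, against 8.43% of all genes called, 4.74% that rose and 3.69% that fell. The median difference of the 9 was 1.02, beside 0.0119 over all genes tested. Values of the 2 groups did not overlap for 6 tested genes that were higher and 1 that was lower, against 18.4% and 17.3% of all genes. These counts and the median include Fcer1a, which passed the filter only through libraries that had received bleomycin. The genes were also chosen with earlier results of these data known, so the shares are given as a description. The count of 6 genes was 2 without control 1 or without bleomycin 3, and 3 without control 2, control 3 or bleomycin 2. The sizes were unequal. The IgE-binding chain changed by far more than the granule proteases, and the beta chain did not pass.

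Fcer1a (ENSMUSG00000005339, chromosome 1, 173221284 to 173227214, mm10) was close to absent in control skin. It stood at 0.0655, 0.179 and 0.288 FPKM in control 1, 2 and 3, which were 1, 3 and 5 reads. Bleomycin 1, 2 and 3 had 5.90, 7.23 and 5.97 FPKM, or 96, 125 and 105 reads. All bleomycin libraries lay above all controls, and they were close to one another. The difference was 2.64 ± 0.23 (adjusted p = 0.00212, limma). Scaled to library size, 326 reads over the bleomycin libraries against 9 over the controls gave a ratio of 35.0, with a 95% exact interval of 18.2 to 77.2 that covers counting error only. This call held in all 19 alternatives tried, with adjusted p from 0.00143 to 0.0355.

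With added nitrate Fcer1a lay between the other groups. Nitrate 1, 2 and 3 had 2.02, 4.92 and 2.90 FPKM, each below all bleomycin libraries and above all controls. Against control the gene was higher with nitrate (1.81 ± 0.23, adjusted p = 0.0113), and it was the single one of the 9 that passed limma's test in that comparison, where 8.53% of all genes were called, 3.63% that rose and 4.90% that fell. The ratio of reads to control was 18.0 (95% exact interval 9.26 to 39.9). This call ended with the mean of hair follicle genes as a covariate (1.83, adjusted p = 0.0845), without control 2 (1.81, adjusted p = 0.0552) and without both control 1 and bleomycin 1 (1.74, adjusted p = 0.0688). Against bleomycin alone the difference was -0.83 ± 0.23 (adjusted p = 0.138) and did not pass.

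Ms4a2 (ENSMUSG00000024680, chromosome 19, 11615523 to 11623719), the beta chain gene, did not follow the alpha chain. Control 1, 2 and 3 had 0.418, 0.507 and 1.17 FPKM. The bleomycin libraries had 0.959, 1.79 and 1.33 FPKM, and nitrate 1, 2 and 3 had 0.794, 3.47 and 1.20. The 3 groups overlapped, and nitrate 2 was the highest library. Neither bleomycin (0.49 ± 0.34, adjusted p = 0.392) nor nitrate against bleomycin (0.16 ± 0.34, adjusted p = 0.849) passed limma's test. The estimate for nitrate against bleomycin turned to -0.23 without nitrate 2. In control skin Ms4a2 thus had a mean of 0.697 FPKM where Fcer1a had 0.177, and in bleomycin skin it had 1.36 against 6.37. Their reads, not scaled to gene length, were 99 against 9 and 197 against 326.

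The gamma chain gene Fcer1g, which macrophages and other leukocytes also use, was far above both other chains. It had 70.6, 31.2 and 23.2 FPKM in control 1, 2 and 3, then 79.0, 68.0 and 117.6 with bleomycin, and 46.6, 26.3 and 20.3 with added nitrate. Of 22 genes in the list of IgE receptor signalling 21 were tested, and 1 rose with bleomycin: Lat, an adaptor of mast cells and T cells, by 1.08 ± 0.21 (adjusted p = 0.0213). A count of 1 in 21 is near the 4.74% of all genes that rose. Lat reached 1 FPKM only in the bleomycin libraries and nitrate 2, so it passed the filter through the group where it was high. It had 0.355 to 0.478 FPKM in control, 1.40 to 2.6 with bleomycin and 0.670 to 1.60 with nitrate. The list's median difference was 0.39.

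The chymase genes rose together. Mcpt4 (ENSMUSG00000061068, chromosome 14, 56059629 to 56062313), a chymotrypsin-like protease of skin mast cells, was the most abundant of the 10 genes in every library. It had 24.2, 40.6 and 20.7 FPKM in control 1, 2 and 3 and 56.1, 88.1 and 76.7 in bleomycin 1, 2 and 3, with no overlap (1.37 ± 0.34, adjusted p = 0.0428). Nitrate 1, 2 and 3 had 31.0, 68.3 and 39.8 FPKM, and nitrate 2 lay within the bleomycin range. Cma1 (ENSMUSG00000022225, chromosome 14, 55941451 to 55944675), a second chymase of the same cluster of protease genes, went from 20.0, 25.0 and 12.1 FPKM in control to 40.5, 49.5 and 55.7 with bleomycin (1.35 ± 0.27, adjusted p = 0.0231). Its nitrate libraries had 22.4, 37.1 and 26.4 FPKM, all below the bleomycin libraries. Against bleomycin, the differences with nitrate were -0.71 ± 0.34 for Mcpt4 (adjusted p = 0.315) and -0.76 ± 0.27 for Cma1 (adjusted p = 0.203), and neither passed.

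Tpsb2 (ENSMUSG00000033825, chromosome 17, 25366550 to 25368094), the main tryptase gene, showed the largest difference among the proteases tested. Control 1, 2 and 3 had 14.6, 17.6 and 10.3 FPKM, and bleomycin 1, 2 and 3 had 43.9, 50.1 and 44.8. The difference was 1.67 ± 0.26 (adjusted p = 0.0104), a ratio of group means of 3.26. Nitrate 1, 2 and 3 had 17.1, 32.3 and 17.5 FPKM, all below bleomycin and overlapping control (-1.08 ± 0.26 against bleomycin, adjusted p = 0.125). Tpsab1 (ENSMUSG00000024173, chromosome 17, 25343245 to 25345562), the neighbouring tryptase gene, was low throughout and was not tested. It had 0.656, 0.114 and 0.110 FPKM in control, 1.93, 0.662 and 0.812 with bleomycin, and 0.312, 0.313 and 0.0502 with nitrate. Its reads came to 29, 120 and 26 over the 3 groups. No window of 50 bases was shared between the 2 tryptase genes in transcripts of GENCODE M21, so exact reads of that length could be told apart there. The bounds of Tpsb2 in the deposited table differ from that annotation, so its deposited gene model was not checked.

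Cpa3 (ENSMUSG00000001865, chromosome 3, 20215620 to 20242181), which trims peptides cut by the chymases, changed least among the abundant proteases. It had 15.8, 20.2 and 10.96 FPKM in control 1, 2 and 3 and 26.2, 33.0 and 25.0 with bleomycin. These ranges did not overlap, but the difference of 0.83 ± 0.28 did not pass (adjusted p = 0.109). Nitrate 1, 2 and 3 had 17.0, 35.3 and 22.2 FPKM, the second of them above every bleomycin library. Against bleomycin the difference was -0.22 ± 0.28 (adjusted p = 0.723), and it was 0.01 without nitrate 1.

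Of the proteases, Tpsb2 kept its call when any 1 library was left out and lost it without both control 1 and bleomycin 1 (1.74, adjusted p = 0.0794). Mcpt4 lost its call without control 1, 2 or 3, bleomycin 1, 2 or 3, or nitrate 3, with differences of 1.18 to 1.65 and adjusted p from 0.0530 to 0.126. The call of Cma1 ended without control 1 (0.0562), control 3 (0.0528), bleomycin 2 (0.0626) or bleomycin 3 (0.0825), with differences of 1.07 to 1.41.

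Hdc (ENSMUSG00000027360, chromosome 2, 126593667 to 126619299), the histamine-making enzyme, rose with bleomycin and was back at or below control with nitrate. It had 1.33, 1.41 and 0.675 FPKM in control 1, 2 and 3 and 2.47, 4.35 and 3.25 with bleomycin (1.02 ± 0.22, adjusted p = 0.0293). Nitrate 1, 2 and 3 had 0.810, 1.1 and 0.485 FPKM, all below bleomycin and within or under the control range. The difference from bleomycin was -1.27 ± 0.22 (adjusted p = 0.0848), the largest of the 9 in that comparison, and did not pass. Hdc is also known from neutrophils and basophils. The 14 neutrophil markers summed to 16.2 to 41.2 FPKM in control, 499 to 3276 with bleomycin and 24.8 to 191 with nitrate. Most of the bleomycin sums was S100a8 and S100a9 (1389 and 1792 FPKM in bleomycin 1), which other skin cells also make. As averages of log2(FPKM + 1) the list gave 0.72 to 1.30, 2.74 to 3.25 and 0.92 to 1.77. Of the 8 tested 7 rose with bleomycin, against 4.74% of all genes, and their part in the Hdc values was not tested. Clec4e reached 1 FPKM only in bleomycin libraries and Cxcr2 in no control, so both passed the filter through groups where they were high. Camp, too low to be tested, had a lower mean with bleomycin (0.433 FPKM) than in control (0.869). The defining neutrophil gene Ly6g was at 0 in all libraries but bleomycin 1 and nitrate 1. Among 6 genes that move, break down or sense histamine, 2 were tested, and neither the vesicle transporter Slc18a2 nor the methyltransferase Hnmt passed. The rise of Hdc with bleomycin lost its call without any 1 of control 1, 2 and 3, bleomycin 2 and bleomycin 3 (0.86 to 1.1, adjusted p from 0.0597 to 0.0884).

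Mrgprb2 (ENSMUSG00000050425, chromosome 7, 48550965 to 48558086) went the other way. It had 2.52, 2.95 and 2.22 FPKM in control 1, 2 and 3, and 1.09, 1.33 and 1.23 with bleomycin. Every bleomycin library was lower than every control (-0.68 ± 0.13, adjusted p = 0.0187). Nitrate 1, 2 and 3 had 2.05, 1.60 and 1.90 FPKM, above all bleomycin libraries and below all controls. The difference of nitrate from bleomycin was 0.36 ± 0.13 (adjusted p = 0.201) and that from control was -0.32 ± 0.13 (adjusted p = 0.134). Mrgprb1, a nearby family member also found in mast cells, had 0.893 to 1.41 FPKM in control, 2.20 to 3.10 with bleomycin and 1.34 to 3.98 with nitrate, so every bleomycin library lay above every control, the side opposite to Mrgprb2 (0.71 ± 0.28, adjusted p = 0.148, not passing). Of the 6 genes in the list of Mas-related receptors 3 were tested, and 1 fell with bleomycin, where 3.69% of all genes did so. This was Mrgprb3, whose source in skin was not tested (-2.0 ± 0.35, adjusted p = 0.0147, limma). It had 5.72 to 10.8 FPKM in control, 0.790 to 1.57 with bleomycin and 1.08 to 4.16 with nitrate. The call of Mrgprb2 ended without control 1, control 2, bleomycin 1 or bleomycin 3 (adjusted p from 0.0545 to 0.0782).

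Gata2 (ENSMUSG00000015053, chromosome 6, 88193891 to 88207032) did not differ detectably between the groups. It had 2.19, 2.23 and 2.07 FPKM in control, 2.06, 2.49 and 2.47 with bleomycin (0.08 ± 0.29, adjusted p = 0.891), and 1.31, 3.73 and 0.993 with nitrate. Vessel walls also express Gata2. The 15 endothelial markers averaged 3.98, 3.86 and 3.73 in log2(FPKM + 1) in control 1, 2 and 3, 3.23, 3.30 and 3.22 with bleomycin, and 3.11, 3.58 and 2.68 with nitrate, where nitrate 2 was the highest library for both Gata2 and these markers. Without nitrate 2 the difference of nitrate from control was -0.56 (adjusted p = 0.0308), and without nitrate 3 it was 0.07.

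**Figure D2:**
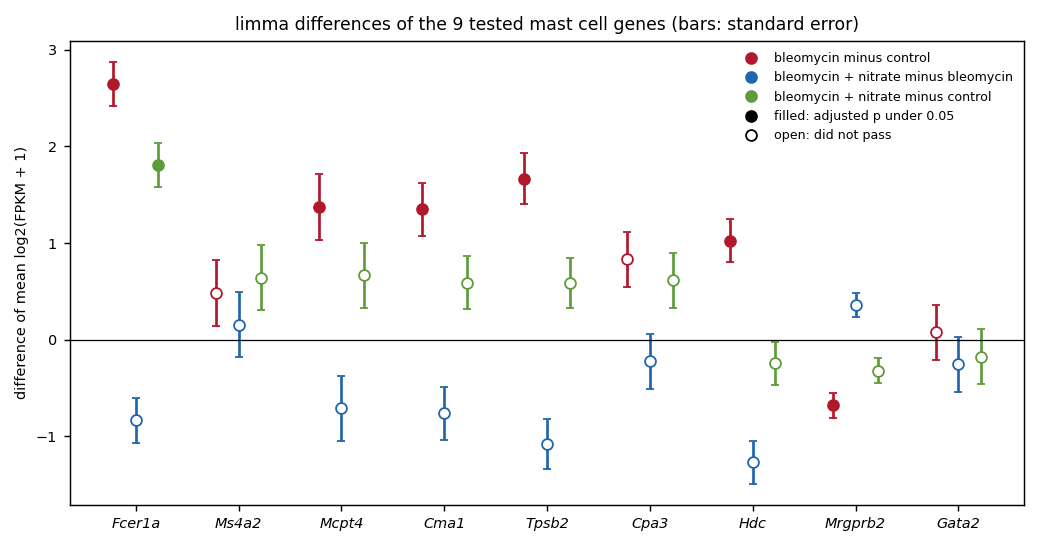
Differences of mean log2(FPKM + 1) with standard errors from limma for the 9 tested mast cell genes in 3 comparisons; filled symbols passed an adjusted p of 0.05. In the comparison of bleomycin with control 6 symbols are filled, in that of nitrate with control 1 (Fcer1a), and in that of nitrate with bleomycin none.

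What nitrate changed in bleomycin skin was asked by comparing those 2 groups. None of the 9 genes passed limma's test, nor did any of all genes (0.00%). At an unadjusted p under 0.05, 5 of the 9 genes differed in limma, beside 17.9% of all genes, and voom on recovered reads also called 0 genes and had 5 of the 9 at that level. Estimates were below 0 for 7 of the 9, with a median of -0.71 beside -0.00290 over all genes. Tested genes whose groups did not overlap were 4 that were lower (Fcer1a, Cma1, Tpsb2, Hdc) and 1 that was higher (Mrgprb2), against 11.8% and 9.40% of all genes. Against control, 6 of the 9 estimates with nitrate were above 0, and the groups did not overlap for Fcer1a, which was higher, and Mrgprb2, which was lower, where 17.3% and 17.5% of all genes did so. These comparisons share libraries, so their values are not independent.

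Within a group, most of these genes were highest in the same library. Nitrate 2 was the highest nitrate library for 9 of the 10 genes, bleomycin 2 the highest bleomycin library for 8 and control 2 the highest control for 7. Because of this, levels relative to Cpa3 in the same library were also computed, a choice made after the values were seen, and they are given as a description with no test. Such a ratio does not change with library size. It is free of the share of mast cell RNA only for a gene that mast cells alone express, which was not tested for Fcer1a, Ms4a2, Hdc and Gata2. A change in Cpa3 itself moves every ratio, and its mean with bleomycin was 1.80 times that in control.

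Relative to Cpa3 the replicates lay closer together for some genes and further apart for others. The ratio of Fcer1a to Cpa3 was 0.00415, 0.00887 and 0.0263 in control 1, 2 and 3, 0.225, 0.219 and 0.238 with bleomycin, and 0.119, 0.139 and 0.131 with nitrate. In the nitrate libraries, whose Fcer1a levels ranged from 2.02 to 4.92 FPKM, the highest ratio was 1.18 times the lowest. The ratio of Tpsb2 to Cpa3 was 0.871 to 0.942 in control, 1.52 to 1.79 with bleomycin and 0.787 to 1.01 with nitrate, so nitrate and control overlapped and both lay under bleomycin. That of Mcpt4 was 1.53 to 2.02, 2.14 to 3.06 and 1.80 to 1.93 in the same order, and that of Cma1 was 1.11 to 1.27, 1.5 to 2.22 and 1.05 to 1.32. Hdc gave 0.0616 to 0.0843 in control, 0.0942 to 0.132 with bleomycin and 0.0219 to 0.0476 with nitrate, where all nitrate libraries were under all controls. Mrgprb2 gave 0.146 to 0.202, 0.0405 to 0.0491 and 0.0454 to 0.120, and both bleomycin groups were under control. Its nitrate libraries, at 1.60 to 2.05 FPKM, spread further as ratios, with the highest 2.65 times the lowest. Ms4a2 gave 0.0252 to 0.106, 0.0366 to 0.0542 and 0.0466 to 0.0984, and all groups overlapped. For Gata2 the ratios were 0.110 to 0.189, 0.0756 to 0.0986 and 0.0448 to 0.106, with both bleomycin groups under control. The ratio of Tpsab1, a gene of few reads, was 0.00564 to 0.0416, 0.0201 to 0.0738 and 0.00226 to 0.0183. All its nitrate ratios were under all its bleomycin ratios, and the highest nitrate ratio was 8.10 times the lowest.

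**Figure D3:**
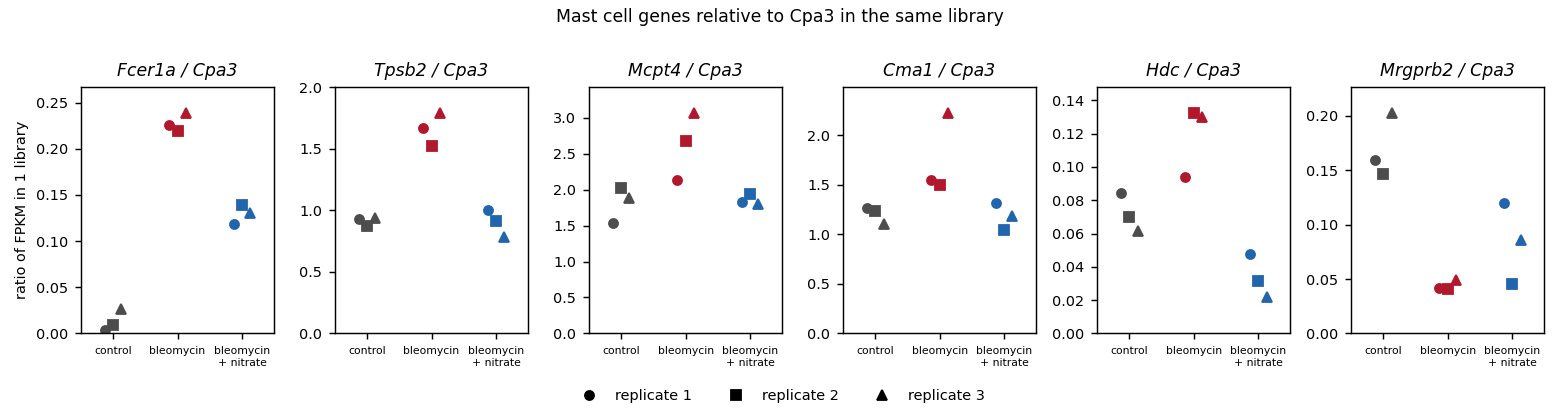
Ratio of the FPKM of 6 mast cell genes to that of Cpa3 in the same library (vertical axes from 0, each with its own scale); symbols are libraries by replicate number. Tpsb2, Mcpt4 and Cma1 have nitrate ratios that overlap control, Fcer1a has nitrate ratios of 0.119 to 0.139 between control and bleomycin, and Hdc has nitrate ratios below control.

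Of 25 further mast cell genes 19 were tested, and with bleomycin 5 rose and 1 fell, with a median difference of 0.26. Of all genes 4.74% rose and 3.69% fell. Srgn, the serglycin core that holds proteases in the granule and is used by many leukocytes, rose from 8.42 to 11.2 FPKM in control to 25.1 to 37.4 (1.54 ± 0.18, adjusted p = 0.00483). Mcemp1, a membrane protein of mast cells and myeloid cells, had 0.347 to 0.677 FPKM in control and 1.85 to 3.19 with bleomycin (1.17 ± 0.20, adjusted p = 0.0121). No control or nitrate library had 1 FPKM of it, so its place among the genes tested rests on the group where it was high. Il1rl1, the IL-33 receptor of mast cells and type 2 lymphocytes, rose as well (1.40 ± 0.26, adjusted p = 0.0187). Enpp3, an ectoenzyme that breaks down extracellular ATP, fell (-0.80 ± 0.15, adjusted p = 0.0191). It reached 1 FPKM only in the controls and nitrate 2, so it passed the filter through the group where it was high.

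Kit, the receptor of stem cell factor that mast cells need to survive, rose with bleomycin (0.78 ± 0.20, adjusted p = 0.0467) and was also higher with nitrate than in control (0.88 ± 0.20, adjusted p = 0.0349). Control 1, 2 and 3 had 1.72, 2.36 and 1.94 FPKM, bleomycin 3.15, 4.67 and 4.74, and nitrate 4.25, 3.56 and 5.99. Melanocytes also carry Kit. The 8 melanocyte markers averaged 1.11, 1.27 and 1.96 in log2(FPKM + 1) in control, 2.40, 2.64 and 3.16 with bleomycin, and 2.77, 2.30 and 4.0 with nitrate, with nitrate 3 highest and nitrate 2 lowest of the nitrate libraries as for Kit. The bleomycin libraries also had the same order for both, but in control Kit was highest in control 2 and the markers in control 3. The part of melanocytes in the Kit values was not tested. Kitl, which encodes stem cell factor, fell with bleomycin from 13.3 to 13.9 FPKM to 8.31 to 9.44 (-0.60 ± 0.12, adjusted p = 0.0196). Of 17 growth factors and cytokine receptors of mast cells 11 were tested, and with bleomycin 5 rose and 1 fell, against 4.74% and 3.69% of all genes. This list shares Kit, Il1rl1 and Csf2rb with the further mast cell genes, so Kit and Il1rl1 count among the rises of both.

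Proteases that are typical of mucosal mast cells or basophils appeared at low counts. Mcpt2, a mucosal mast cell protease, had 0 reads in control and nitrate libraries and 32 in the bleomycin libraries. That is 10.3-fold higher than control when 3 reads over the group stand in for its 0, without the counting error of the 32. Mcpt1, its close relative, had 13 reads with bleomycin, nearly all in bleomycin 2 (0.683 FPKM), and 0 in the other groups. Mcpt8, the defining protease of basophils, had 0 reads in control, 27 with bleomycin (8.69-fold higher with the same floor) and 2 with nitrate. Prss34, also of basophils, had 4, 6 and 0. Cma2, a chymase gene of the same chromosome 14 cluster, had 1, 35 and 21 reads. Its ratio of bleomycin to control was 33.8, with a 95% exact interval of 5.68 to 1372 for counting error. Of 1059 windows of 50 bases in Mcpt4 transcripts 58 also occur in Cma2, so the values of both genes are uncertain by the reads that fall there.

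Basophils express Fcer1a, Ms4a2 and Hdc, and dendritic cells can carry the IgE receptor, so markers of both are set beside these genes. The 6 basophil markers averaged 0.80 to 0.93 in log2(FPKM + 1) in control, 1.01 to 1.17 with bleomycin and 0.69 to 0.82 with nitrate, and the bleomycin libraries lay above all others. Their sums were 7.89 to 10.7, 9.62 to 11.1 and 5.73 to 7.71 FPKM, most of it from Il3ra, which other cells share. Only 2 of the 6 were tested and 0 passed with bleomycin by limma. Il3ra had a difference of -0.14 ± 0.16 (adjusted p = 0.626) and Itga2 one of 0.35 ± 0.19 (adjusted p = 0.275). Cd200r3, a receptor of basophils and mast cells, had 0.212 to 0.230 FPKM in control, 0.328 to 0.482 with bleomycin and 0.167 to 0.338 with nitrate. Ccr3, the eotaxin receptor that eosinophils also carry, had 0.200 to 0.281, 0.406 to 1.09 and 0.0803 to 0.200 FPKM. Both were higher in all bleomycin libraries than in all controls and were too low to be tested, and Mcpt8 reached at most 0.752 FPKM and Prss34 at most 0.215. The 13 dendritic cell markers averaged 1.65 to 1.89 in control, 1.93 to 2.24 with bleomycin and 1.47 to 1.92 with nitrate in log2(FPKM + 1). Of 9 tested, 3 rose with bleomycin (Itgax, Ccr7 and Epcam), against 4.74% of all genes, while 6 estimates were above 0 and 3 below. Epcam, whose source in skin was not tested, was highest with nitrate (mean 69.6 FPKM, beside 51.4 with bleomycin and 23.8 in control). Zbtb46 went from 1.54 to 1.95 FPKM in control to 0.753 to 1.07 with bleomycin, with no overlap. Among those too low to be tested, Flt3 was higher in all bleomycin libraries than in all controls and Siglech was lower. Leukocyte markers, 7 genes, averaged 3.58 to 4.29, 4.90 to 5.45 and 3.0 to 4.33 in log2(FPKM + 1). Of these, 3 of 7 rose with bleomycin, against 4.74% of all genes. How much of the Fcer1a values came from basophils or dendritic cells was not tested.

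Hair follicle genes, 25 in the list, differed widely between libraries of 1 group. As averages of log2(FPKM + 1) they stood at 0.31, 3.42 and 5.54 in control 1, 2 and 3, 1.13, 5.21 and 6.51 with bleomycin and 7.46, 5.33 and 8.01 with nitrate. Nitrate 2, lowest of the nitrate libraries in these genes, was highest in 9 of the 10 mast cell genes. With that mean as a covariate, 5 of the 9 tested genes were called between bleomycin and control in place of 6, and Mcpt4 was the one lost (1.38, adjusted p = 0.0675). Of 13 mitochondrially encoded genes 7 fell with bleomycin, against 3.69% of all genes. Of 20 immediate early genes, which tissue handling can raise, 7 rose, against 4.74% of all genes. The part of these lists in the mast cell values was not tested.

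**Figure D4:**
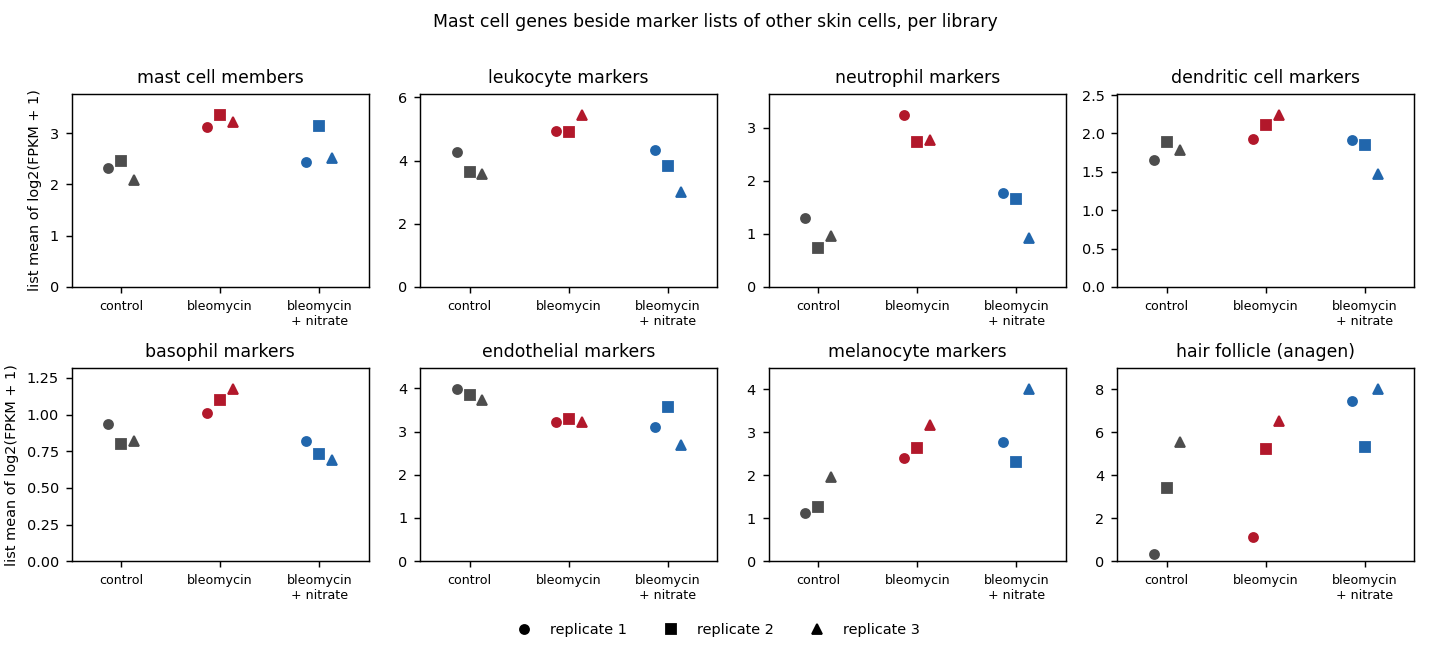
Mean log2(FPKM + 1) of the 10 mast cell genes and of 7 marker lists in each library (vertical axes from 0, each with its own scale); symbols are libraries by replicate number. Nitrate 2 is the highest nitrate library for mast cell and endothelial genes, and the lowest for hair follicle and melanocyte genes.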

How the data were processed

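RNA of skin biopsies was measured in 9 libraries, grouped by their titles. Per the labels' protocols, RNA came from an RNeasy kit and libraries from a SMARTer kit. The build was mm10 per the submitters' processing notes, while the sources used here name neither aligner nor counter. The authors deposited FPKM values per gene with lengths and symbols. Within 0.01, FPKM times length was a whole multiple of 1 step in 100% of values of every library, which gave reads, 15804050 to 18352592 per library. A count of 0 allows up to 3 reads. Intervals cover counting error only, and floors cover only that of the count of 0. All genes were kept, and where genes shared a symbol (102 symbols) it stands for the one with the highest mean.

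The main test was limma 3.58.1 (R 4.3.3) for log2(FPKM + 1), with all 9 libraries in 1 fit (3 group means, eBayes with trend and robust, two-sided), and the test was tried on simulated data. Exact intervals were computed with scipy 1.17.1, and overlaps of transcripts with GENCODE M21. The members and gene lists were chosen with earlier results of these data known. Named were all 10 genes, up to 4 genes of each list with the smallest p per comparison, genes that define another cell type, and the 5 genes most like Fcer1a and Cpa3. Mcpt1, Mcpt2, Mcpt8, Prss34, Cma2, Fcer1g, Ly6g and Ighe were named after their values were seen. Alternatives were another pseudocount (0.1), no filter, a filter on the mean, 2 scalings, only the groups compared, the replicate number as a block, a hair follicle covariate, voom on reads, and leaving out libraries. Promoters came from RefSeq.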

Additional observations from a re-analysis of the deposited data

How the results depend on the processing

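The call of Fcer1a for bleomycin against control held in all 19 alternatives. The counts of mast cell genes called in that comparison (6) moved to 3 with no filter and to 1 without both control 1 and bleomycin 1, where fewer libraries entered, and ranged from 2 to 6 when 1 library was left out. All genes called there (1234) came to 676 with no filter, 137 without control 1 and bleomycin 1, and 334 to 1539 with 1 library left out. For nitrate against bleomycin (0 genes), the replicate block called 10 and leaving out 1 library 0 to 37, and none was one of the 9 genes. For nitrate against control (1249 genes, 1 of the 9), the count was 294 with no filter, 306 with only the groups compared, 9 with the hair follicle covariate (0 of the 9), 23 without control 1 and bleomycin 1 (0 of the 9), and 45 to 2882 with 1 library left out (0 to 2 of the 9). With 1 library left out, nitrate against bleomycin ranged from -0.498 to 0.00675 for Cpa3 and from -0.234 to 0.425 for Ms4a2, and nitrate against control from -0.558 to 0.0654 for Gata2. Signs turned without nitrate 1, 2 and 3 in that order, where no call was made, and the cause was not tested. With no filter, Mcpt4 (adjusted p = 0.0928), Cma1 (0.0537) and Hdc (0.0638) lost their calls for bleomycin against control, as did Mrgprb2 with voom (0.0556). The median difference of all genes was 0.13 for bleomycin and 0.18 for nitrate against control with voom, in place of 0.0119 and 0.0178. With the replicate block Cpa3 passed (0.0479), and no other call of the 9 genes changed. Same-numbered libraries correlated in their deviations by -0.391 to 0.517, so the number was not taken as a pairing. Fcer1a in control (1, 3 and 5 reads), Tpsab1 and the basophil genes are limited by depth.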

Other observations

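The genes most like Fcer1a over the 9 libraries, by Pearson's r of log2(FPKM + 1) among 14636 other tested genes, were Cdh11 (0.973), Rptn (0.967), Trbc2 (0.964), Glrx (0.964) and Zkscan6 (0.964). Cdh11 is a cadherin of fibroblasts and macrophages, and Trbc2 encodes part of the T cell receptor. The genes most like Cpa3 were Mrgprb1 (0.947), Penk (0.926), Gm5561 (0.916), Colec12 (0.901) and Vnn3 (0.898). Both lists are descriptions over libraries that fall into groups. Mrgprb1, a receptor gene of mast cells, was thus closer to Cpa3 than any other gene outside the 10, while Mrgprb2 fell with bleomycin.

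Of 11 genes for enzymes and receptors of lipid mediators 8 were tested, and with bleomycin 1 rose, where 4.74% of all genes did so: Ptgs2, the inducible cyclooxygenase, from 0.286 to 0.352 FPKM in control to 3.0 to 9.86 (2.25 ± 0.35, adjusted p = 0.00975, limma), with 0.453 to 1.42 FPKM with nitrate. Ptgs2 reached 1 FPKM only in the bleomycin libraries and nitrate 1, so it passed the filter through the group where it was high. Pla2g4a, Alox5ap and Hpgds were also higher in all bleomycin libraries than in all controls but did not pass (adjusted p = 0.133, 0.174 and 0.125, limma). For nitrate against bleomycin all 8 estimates were below 0, with a median of -0.62, and none passed. Of 9 genes of granule proteoglycan synthesis, 2 rose with bleomycin, where 4.74% of all genes did so. They were Srgn, counted above, and the heparan polymerase gene Ext1 (0.50 ± 0.10, adjusted p = 0.0265, limma). The IgE heavy chain gene Ighe was listed at 0 in all control and nitrate libraries and did not exceed 0.0716 FPKM in bleomycin libraries.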
